A study of Mus musculus with 6 samples.

Results

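Tyrosine is broken down along a short enzyme route, and the 6 genes described here are its 5 enzymes (Tat, Hpd, Hgd, Gstz1 and Fah) together with Hao2, a peroxisomal oxidase of hydroxyacids. They were picked by symbol in GENCODE M21 from a table of 47643 genes because Tat, Hpd and Hao2 were lower when Myc was deleted, so their difference between the groups is a description and supports nothing. Of the 6, 4 had enough reads to be among the 12720 genes tested. Hgd and Fah did not.

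The libraries came from the intestine of male C57BL/6 mice aged 7 to 8 weeks, which had all been injected with tamoxifen and kept on a 60% high-fat diet for 2 weeks. The genotype was MycΔIE, ERT2 in 3 libraries (Myc-deleted), an inducible deletion of the transcription factor gene Myc, and Mycfl/fl in 3 (control), the floxed gene. The labels name neither the promoter that drives the recombinase nor whether the controls carry one, so the absence of Myc and the recombinase itself cannot be told apart. They also do not give the segment of intestine, and the extraction text names liver. Replicates are known only as separate samples, so p-values measure the spread between these libraries, which may be technical.

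In mammals tyrosine is used for protein, for catecholamines and pigment, and otherwise for fuel, mostly in hepatocytes. Tat moves its amino group to an acceptor and leaves 4-hydroxyphenylpyruvate. Hpd turns that into homogentisate, Hgd opens the ring, Gstz1 isomerises the product, and Fah splits it into fumarate and acetoacetate. Loss of HGD in humans gives alkaptonuria, and loss of FAH gives hereditary tyrosinaemia. Hao2 oxidises L-2-hydroxyacids in peroxisomes and passes the electrons to oxygen, which gives hydrogen peroxide. It is no part of the tyrosine route.

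The promoter windows of the 3 genes that were lower are shown because these genes differed in the same direction. Each runs from 250 bases before to 50 bases after the start in RefSeq (GRCm38.p6), read along the gene's own strand. All 6 genes had a window, and Gstz1 had a pair of them. Capitals mark a CCAAT box (CCAAT) in Tat and the half-site GTTAAT of the HNF1 factors in Hao2, on either strand, and Hpd held none of the letters searched. The windows are chr8:109990186-109990485 on the plus strand for Tat, chr5:123182674-123182973 on the minus strand for Hpd and chr3:98893181-98893480 on the minus strand for Hao2.
Tat: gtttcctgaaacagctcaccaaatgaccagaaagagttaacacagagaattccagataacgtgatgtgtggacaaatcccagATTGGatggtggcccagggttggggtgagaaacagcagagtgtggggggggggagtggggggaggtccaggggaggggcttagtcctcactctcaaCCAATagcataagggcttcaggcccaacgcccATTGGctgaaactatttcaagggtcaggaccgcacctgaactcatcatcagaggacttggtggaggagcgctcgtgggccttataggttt
Hpd: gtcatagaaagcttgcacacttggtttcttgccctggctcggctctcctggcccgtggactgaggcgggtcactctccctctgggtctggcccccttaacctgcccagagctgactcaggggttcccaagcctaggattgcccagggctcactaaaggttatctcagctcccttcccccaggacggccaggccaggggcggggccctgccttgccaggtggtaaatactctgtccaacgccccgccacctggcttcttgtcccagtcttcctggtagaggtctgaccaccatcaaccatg
Hao2: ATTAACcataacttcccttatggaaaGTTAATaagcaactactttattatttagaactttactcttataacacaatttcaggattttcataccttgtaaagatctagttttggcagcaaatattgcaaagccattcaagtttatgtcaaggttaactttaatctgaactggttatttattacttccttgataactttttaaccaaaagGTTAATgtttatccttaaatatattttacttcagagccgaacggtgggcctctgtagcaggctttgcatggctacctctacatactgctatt
The E-box CACGTG, the motif that Myc binds with Max, was in 7.2% of 32851 windows and in none of the windows of the 6 genes. GTTAAT was in 7.1% of all windows and stood 3 times in that of Hao2. CCAAT was in 37.4% of all windows and stood 3 times in that of Tat, 2 times in that of Hgd and once in each of the Gstz1 windows. The nuclear receptor half-site AGGTCA (16.3% of all windows) stood 2 times and the TATA box TATAAA (13.6%) once in the window of Hgd, and the glucocorticoid receptor half-site AGAACA (19.0%) was in none. The motifs were searched on both strands and matches of different motifs in these windows did not overlap. The Hao2 window held 32.3% G and C, the Tat window 53.7% and the Hpd window 61.3%, against a median of 52.7% over all windows.

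Levels below are TMM-scaled CPM, read counts relative to library size, and differences are log2 fold changes of Myc-deleted over control with their standard error. The libraries held 9956938 to 11328693 expected counts, and 3 counts, taken as the limit of detection, came to 0.259 to 0.307 CPM. In bulk tissue, fewer cells that carry a transcript and less of it per cell cannot be told apart. The intestinal label was checked first. Vil1, the structural protein of the brush border, stood at 4214 ± 190.4 CPM in Myc-deleted and 4158 ± 332 CPM in control mice (SD, n = 3 each). Myc itself stood at 4.49 ± 1.26 CPM in Myc-deleted and 5.98 ± 0.102 CPM in control mice, a difference that did not pass (-0.41 ± 0.22, edgeR adjusted p = 0.318), and Myc-deleted library 3 lay at 5.81 CPM, beside 5.86 to 6.05 CPM in the controls.

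Tat, Hpd and Hao2, 3 of the 4 tested members, lay past the threshold on the lower side (edgeR quasi-likelihood test, adjusted p under 0.05 over all tested genes), as did 3.73% of all tested genes (7.95% in either direction). Hao2 was 7.21-fold lower, Tat 2.75-fold and Hpd 2.005-fold, and Gstz1 did not pass. Since the genes were chosen on this contrast, nothing is read from the count. In each of the 4, the highest Myc-deleted value lay under the lowest control value, as in 13.7% of all tested genes. The median log2 fold change of the 4 was -1.23, beside 0.00 for all tested genes.

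**Figure D1:**
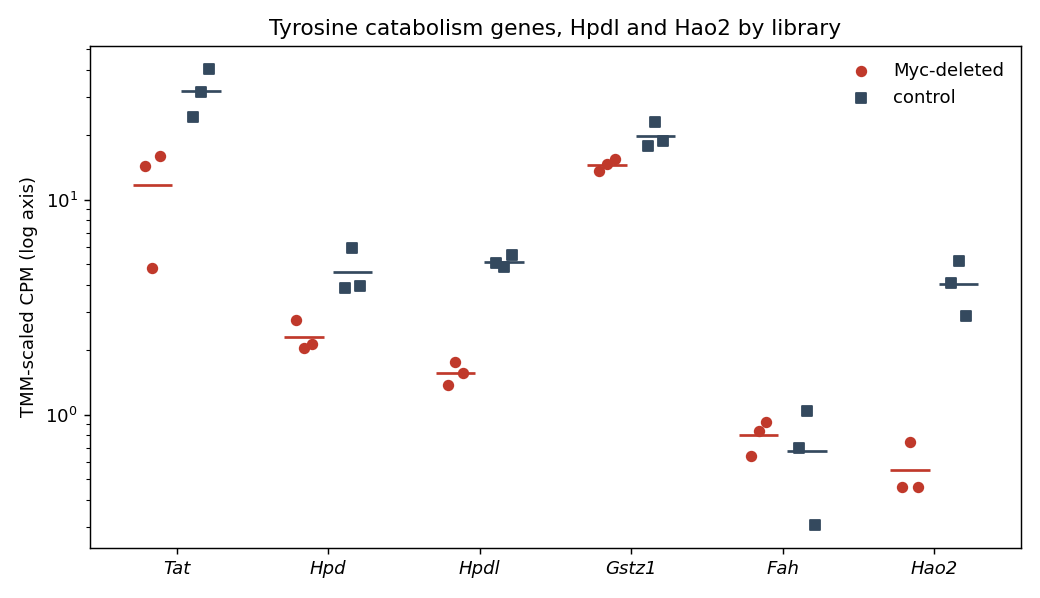
TMM-scaled CPM (log axis) of Tat, Hpd, Hpdl, Gstz1, Fah and Hao2 in each library, with Myc-deleted libraries as red circles, control libraries as dark squares and group means as bars. The groups are apart for each gene but Fah, whose counts are 12 or fewer; Tat has 1 low Myc-deleted library at 4.83 CPM. Hgd, with no read, is not drawn.

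Tat (ENSMUSG00000001670.13, chromosome 8, 109990437 to 109999803, plus strand, GRCm38) encodes the aminotransferase that begins the route, an enzyme that glucocorticoids induce in the liver. It stood at 14.3, 4.83 and 15.96 CPM in Myc-deleted libraries 1 to 3, against 24.2, 31.6 and 40.7 CPM in control libraries 1 to 3. Myc-deleted library 2 was the lowest of the 6, and the other Myc-deleted libraries also lay below every control. The group means were 11.7 ± 5.999 CPM in Myc-deleted and 32.2 ± 8.22 CPM in control mice (SD, n = 3 each), a log2 fold change of -1.46 ± 0.34. Without Myc-deleted library 2 it was -1.10. The call was lost without control library 2 (adjusted p = 0.0892) and without control library 3 (0.0926), and with DESeq2 (0.0655).

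Hpd (ENSMUSG00000029445.13, chromosome 5, 123171807 to 123182727, minus strand) encodes the dioxygenase that makes homogentisate. Its levels were low, with 30, 22 and 23 counts in Myc-deleted libraries 1 to 3 and 39, 69 and 39 counts in control libraries 1 to 3. These came to 2.30 ± 0.384 CPM in Myc-deleted and 4.61 ± 1.18 CPM in control mice (SD, n = 3 each), and control library 2 was the highest of the 6. The log2 fold change was -1.004 ± 0.26, just inside the threshold at an edgeR adjusted p of 0.0473. Hpd left the threshold whichever library was left out, with adjusted p values of 0.0546 without Myc-deleted library 1, 0.140 without library 2 and 0.120 without library 3. Without control library 1, 2 or 3 the adjusted p was 0.0668, 0.189 or 0.0722. Other fits also left it outside, at an adjusted p of 0.0564 in DESeq2, 0.0549 in limma voom and 0.0755 in the fit blocked by replicate. The direction was the same in every run, with fold changes of -1.15 to -0.78 when a library was left out.

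Hgd (ENSMUSG00000022821.13, chromosome 16, 37580153 to 37632020, plus strand), the enzyme that follows Hpd, had 0 counts in all 6 libraries. A count of 0 allows up to 0.259 to 0.307 CPM per library. Its nearest protein-coding neighbours were read, with Rabl3 at 10.5 ± 2.22 CPM in Myc-deleted and 10.4 ± 1.19 CPM in control mice (SD, n = 3 each).

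Gstz1 (ENSMUSG00000021033.10, chromosome 12, 87147165 to 87164723, plus strand) encodes the isomerase that comes after the ring is opened, a glutathione transferase of the zeta class that also handles chlorinated acids. It stood at 13.6, 14.6 and 15.4 CPM in Myc-deleted libraries 1 to 3, against 17.7, 23.0 and 18.7 CPM in control libraries 1 to 3. It was the steadiest of the tested members within each group, with an SD of 0.087 log2 CPM among Myc-deleted and 0.198 among control libraries. The log2 fold change was -0.45 ± 0.13, just outside the threshold at an edgeR adjusted p of 0.0602. Its adjusted p was 0.0460 when libraries were scaled by the upper quartile and 0.0395 when low genes were kept. It did not pass in any run that left out a library (0.0647 to 0.206).

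Fah (ENSMUSG00000030630.16, chromosome 7, 84585159 to 84606722, minus strand), the hydrolase that ends the route, was near the limit of detection. It had 7, 9 and 10 counts in Myc-deleted libraries 1 to 3 and 7, 12 and 3 counts in control libraries 1 to 3. The groups overlapped, at 0.800 ± 0.145 CPM in Myc-deleted and 0.680 ± 0.366 CPM in control mice (SD, n = 3 each), and the gene was not tested at this depth. Fitted without the filter on low genes, Fah gave 0.21 ± 0.57 (edgeR adjusted p = 0.895).

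Hao2 (ENSMUSG00000027870.8, chromosome 3, 98874521 to 98893239, minus strand) showed the largest fold change of the 4 tested members. It had 5, 8 and 5 counts in Myc-deleted libraries 1 to 3, against 41, 60 and 28 counts in control libraries 1 to 3. The groups did not overlap, with 8 counts in the highest Myc-deleted library and 28 in the lowest control. In CPM this was 0.554 ± 0.164 in Myc-deleted and 4.04 ± 1.16 in control mice (SD, n = 3 each), a log2 fold change of -2.85 ± 0.37. The fold change ranged from -3.12 to -2.63 when a library was left out. Hao2 stayed past the threshold in each of these 6 runs and with each of the 7 other scalings, filters, tools and designs. The fold is imprecise, since all 3 Myc-deleted libraries together held 18 counts.

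**Figure D2:**
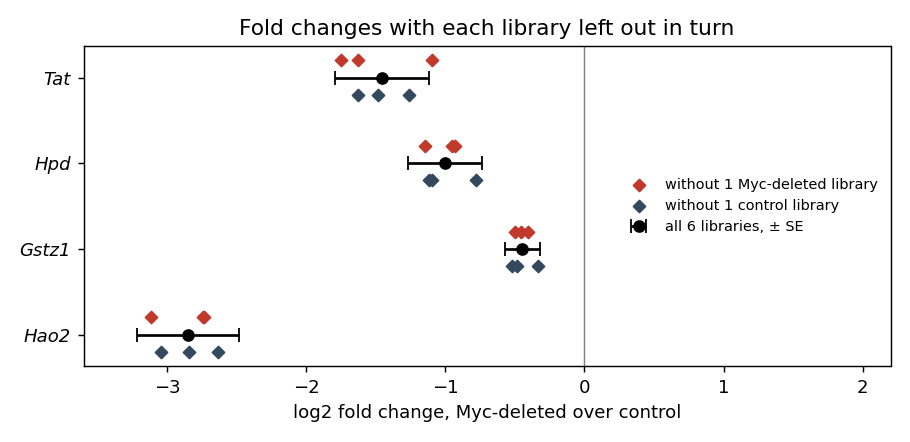
Log2 fold change of Myc-deleted over control for the 4 tested members: black points with bars show all 6 libraries ± SE, and diamonds show runs without 1 Myc-deleted (red) or 1 control (dark) library. All points lie below 0; those of Tat spread from -1.75 to -1.10 and those of Hao2 from -3.12 to -2.63.

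Per kilobase of merged exons, the level of Tat in control mice was 13.4 ± 3.42 CPM per kb, above Gstz1 at 3.89 ± 0.554, Hpd at 2.17 ± 0.553 and Hao2 at 1.97 ± 0.568 (SD, n = 3). The levels of Hpd and Hao2 lay within their spread of each other. Fah followed at 0.307 ± 0.165 CPM per kb and Hgd at 0. In Myc-deleted mice the level of Tat was 4.86 ± 2.495 CPM per kb, that of Gstz1 2.86 ± 0.175 and that of Hpd 1.08 ± 0.181. In Myc-deleted library 2 the level of Gstz1 (2.87 CPM per kb) was above that of Tat (2.01), an order seen in no other library. Hao2, at 0.270 ± 0.0799 CPM per kb in Myc-deleted mice, stood next to Fah at 0.361 ± 0.0652. Tat made up 58.2%, 32.3% and 59.9% of the summed level of the 5 route genes per kb in Myc-deleted libraries 1 to 3, against 64.2%, 62.8% and 74.8% in control libraries 1 to 3. In control mice, 76.4% of all tested genes lay below Tat in level per kb, 49.9% below Gstz1, 36.7% below Hpd and 34.8% below Hao2.

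Hao1, the glycolate oxidase of hepatocytes and the closest relative of Hao2, had 0 counts in all 6 libraries. Hpdl, a relative of Hpd whose human protein is mitochondrial, fell 3.26-fold. It had 15, 19 and 17 counts in Myc-deleted libraries 1 to 3, against 51, 56 and 54 in control libraries 1 to 3, and the groups lay well apart. The log2 fold change of Hpdl was -1.70 ± 0.23 (edgeR adjusted p = 0.00236), and it passed in all 6 runs that left out a library.

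Hepatocytes are the cells best known for this route, and the extraction text names liver, so their markers were read in every library. Of 18 hepatocyte markers, Hao1 was at 0 in all libraries and 4 reached the test. The summed level of the list was 69.7 to 81.4 CPM in Myc-deleted and 54.9 to 79.4 CPM in control libraries. Serpina1b, a member of a family of near-identical genes, supplied most of it, and without it the sum was 3.72 to 5.95 CPM in Myc-deleted and 7.06 to 8.04 CPM in control libraries. The list's 4 tested genes had a median log2 fold change of 0.28, with 1 negative and 3 positive. Ttr (0.30), Apoh (0.25) and Serpina1b (0.30) did not pass. Alb, the main secreted protein of hepatocytes, was the negative one, with 10, 1 and 8 counts in Myc-deleted libraries 1 to 3, against 19, 37 and 27 in control libraries 1 to 3. Alb fell (-2.15 ± 0.52, edgeR adjusted p = 0.0326), but passed in only 1 of 6 runs that left out a library, the one without Myc-deleted library 1. In the other runs its adjusted p was 0.0514 to 0.130, and with the replicate block 0.0583. Its lowest library, Myc-deleted library 2, was also the lowest for Tat. The part of Alb-expressing cells in the difference of Tat, Hpd and Hao2 was not tested.

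Other marker lists differed too. Of 15 enterocyte markers, 5 rose and 0 fell, where 4.22% of all tested genes were higher. Risers numbered 3 without Myc-deleted library 2 or control library 1, and 1, the glucose carrier gene Slc2a2, without control library 2. The summed level of the 15 was 49050 to 54310 CPM in Myc-deleted and 38860 to 46100 CPM in control libraries. Of 7 tested proximal genes 4 rose, with Lct counted among the enterocyte risers too, and 1, Slc40a1, fell. Slc40a1 passed in all 6 runs that left out a library, with fold changes of -3.36 to -2.81. Adh1 of that list fell and passed with upper-quartile scaling, without a filter, at a threshold of 0.1 and without Myc-deleted library 1. Risers of that list numbered 2 without control library 2 and with limma voom, and 3 with DESeq2. Of 4 tested colonic genes 2, Car4 and Saa1, fell, where 3.73% of all tested genes were lower. Both also fell in all 6 runs that left out a library. Car1 of that list passed as higher without a filter and without Myc-deleted library 1. The summed level of the colonic list was 217 to 350.1 CPM in Myc-deleted and 497 to 889 CPM in control libraries. Saa1 alone supplied much of that gap. Fgf15 was the riser among 7 ileal genes. Anpep, an aminopeptidase of the enterocyte brush border, stood at 14010 CPM in Myc-deleted and 15150 CPM in control mice, and Fabp6, the ileal bile acid carrier, at 10560 CPM in Myc-deleted and 11000 CPM in control mice. Rbp2, a retinol-binding protein of the proximal list, stood at 727 CPM in Myc-deleted and 448 CPM in control mice and passed in 1 of 6 runs without a library, the one without Myc-deleted library 1. Rbp2 also missed the threshold in limma voom (adjusted p = 0.0547) and DESeq2 (0.0766), with the block (0.0558), and when scaled by RLE (0.0513) or the upper quartile (0.0596). Saa1 of the colonic list, an acute-phase protein gene, stood at 41.5 CPM in Myc-deleted and 332 CPM in control mice. None of 9 goblet, 7 Paneth, 10 immune or 9 muscle and stromal markers passed with the settings used throughout or with limma voom. At an unadjusted p under 0.05 there were 3, 4, 3 and 2. The share of all tested genes at that p was not counted. DESeq2 called 1 goblet and 1 immune marker. Without a filter on low genes 1 goblet, 2 Paneth, 2 immune and 2 muscle markers passed. Without Myc-deleted library 1, 2 goblet and 2 Paneth markers passed, without control library 3, 2 muscle markers did, and the replicate block called 1 immune marker. Of 10 pancreatic acinar genes, 6 were at 0 in every library and Cela1, the one tested, rose (1.095 ± 0.18, edgeR adjusted p = 0.00550). The part of these shifts in the differences of the 6 genes was not tested.

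Genes that make and recycle tetrahydrobiopterin, a cofactor of aromatic amino acid hydroxylases, were read next. Of 8 tested genes in this list 2 rose (25.0%) and 1 fell (12.5%), with a median log2 fold change of 0.24. Of all tested genes 4.22% were higher and 3.73% lower. Gch1, which commits GTP to the cofactor, stood at 49.5 CPM in Myc-deleted and 34.2 CPM in control mice (0.53 ± 0.12, edgeR adjusted p = 0.0218). It did not pass without control library 2 (0.0905) or control library 3 (0.0795). Gchfr, the feedback regulator of the Gch1 enzyme, rose (0.35 ± 0.08, edgeR adjusted p = 0.0299), but in none of the runs without a library (0.0550 to 0.0970). Qdpr, which recycles the cofactor, fell (-0.40 ± 0.09, edgeR adjusted p = 0.0273) and did not pass without Myc-deleted library 1 (0.0557) or 3 (0.0727) or control library 1 (0.0886) or 2 (0.119).

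Among genes of other fates of tyrosine, 3 of 14 tested fell (21.4%, where 3.73% of all tested genes were lower) and 0 rose, with a median of -0.23. At an unadjusted p under 0.05, 7 were lower and 2 higher. The share of all tested genes at that looser threshold was not counted, so nothing is read from these numbers. The 3 that passed were Hpdl, Fahd1, a relative of Fah in mitochondria, and Got2, the mitochondrial aspartate aminotransferase. Fahd1 (-0.32 ± 0.07, edgeR adjusted p = 0.0245) passed in 1 of 6 runs without a library, the one without Myc-deleted library 1, and had an adjusted p of 0.0516 to 0.0885 in the others. Got2 (-0.37 ± 0.09, edgeR adjusted p = 0.0392) passed in none (0.0537 to 0.121). Tyr, Tyrp1 and Aadat were at 0 in every library. Maoa, a monoamine oxidase, did not pass (-0.22 ± 0.08, edgeR adjusted p = 0.149).

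The products of the route are fumarate and acetoacetate, and 4 of 12 tested genes that use them or make ketone bodies fell (33.3%, where 3.73% of all tested genes were lower) while 0 rose, with 10 of 12 fold changes negative and a median of -0.24. At an unadjusted p under 0.05, 8 were lower and 0 higher. The share of all tested genes at that looser threshold was not counted, so nothing is read from these numbers. Fh1, the fumarase, stood at 47.6 CPM in Myc-deleted and 65.5 CPM in control mice (-0.46 ± 0.08, edgeR adjusted p = 0.00681). Acat1, the mitochondrial thiolase that splits acetoacetyl-CoA, fell alike (-0.46 ± 0.08, edgeR adjusted p = 0.00971). Both passed in all 6 runs that left out a library. Bdh1, which interconverts the ketone bodies (-0.46 ± 0.09, edgeR adjusted p = 0.0109), did not pass without control library 2 (0.0539).

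Other oxidases were read beside Hao2. None of the 8 tested genes of hydroxyacid oxidation and glyoxylate metabolism passed in edgeR, DESeq2 or limma voom, with a median of 0.00. Of these, 2 had an unadjusted p under 0.05, and the share of all tested genes at that p was not counted. Cat, the catalase that removes the peroxide such oxidases make, stood at 152 CPM in Myc-deleted and 192 CPM in control mice (-0.34 ± 0.11, edgeR adjusted p = 0.102). Ldhd, a D-lactate dehydrogenase, lay above every control in every Myc-deleted library, as did 14.0% of all tested genes. It did not pass (0.77 ± 0.26, edgeR adjusted p = 0.113) and held only 102 counts over the Myc-deleted and 58 over the control libraries. Of 26 tested genes of peroxisomal oxidation, 3 fell (11.5%) and 1 rose (3.8%), with a median of -0.04. Of all tested genes 3.73% were lower and 4.22% higher. Pipox, the pipecolate and sarcosine oxidase, stood at 7.37 CPM in Myc-deleted and 15.4 CPM in control mice (-1.06 ± 0.18, edgeR adjusted p = 0.00733). Acox2, an oxidase of branched acyl chains and bile acid precursors, rose (1.31 ± 0.13, edgeR adjusted p = 0.000704). Both passed in all 6 runs that left out a library. Ehhadh (-0.36 ± 0.07, edgeR adjusted p = 0.0166) did not pass without control library 1 (0.0646) or 2 (0.0700), and Ech1 (-0.27 ± 0.07, edgeR adjusted p = 0.0458) passed in no such run (0.0660 to 0.154).

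The breakdown of other amino acids was the longest list. Of 41 tested genes 10 fell (24.4%) and 2 rose (4.9%), where 3.73% of all tested genes were lower and 4.22% higher, 33 had a negative fold change, and the median was -0.36, beside 0.00 over all tested genes. Bhmt, which uses betaine to remake methionine, had 20 counts over the Myc-deleted and 196 over the control libraries (-3.30 ± 0.43, edgeR adjusted p = 0.00199). Prodh, which oxidises proline, fell (-0.70 ± 0.10, edgeR adjusted p = 0.00334), as did Abat, the GABA transaminase (-0.59 ± 0.08, edgeR adjusted p = 0.00264). Aldh4a1, the enzyme after Prodh, rose to 143 CPM in Myc-deleted mice, against 59.6 CPM in control mice (1.26 ± 0.16, edgeR adjusted p = 0.00161). These 4 genes passed in all 6 runs that left out a library. When control library 2 was left out 5 genes of the list fell, and 6 did when control library 3 was. Risers numbered 1 without Myc-deleted library 2, control library 2 or control library 3.

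Transporters of tyrosine and phenylalanine were all read, though Slc43a1 stood at only 0.829 CPM in Myc-deleted and 0.877 CPM in control mice. Of 13 tested, 1 rose and 1 fell (7.7% each), where 4.22% of all tested genes were higher and 3.73% lower. The median was 0.01 and turned to -0.03 with upper-quartile scaling. Slc6a19, the main neutral amino acid carrier of the brush border, stood at 1606 CPM in Myc-deleted and 1318 CPM in control mice and did not pass (0.29 ± 0.12, edgeR adjusted p = 0.203). Slc15a1, the peptide carrier, rose (0.43 ± 0.11, edgeR adjusted p = 0.0479) and passed in 1 of 6 runs without a library, the one without Myc-deleted library 3. It had an adjusted p of 0.0734 to 0.198 in the others. Slc6a20a, an imino acid carrier, fell (-0.50 ± 0.13, edgeR adjusted p = 0.0424). It did not pass without Myc-deleted library 2 (0.0770) or control library 1 (0.0996), 2 (0.151) or 3 (0.0845).

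**Figure D3:**
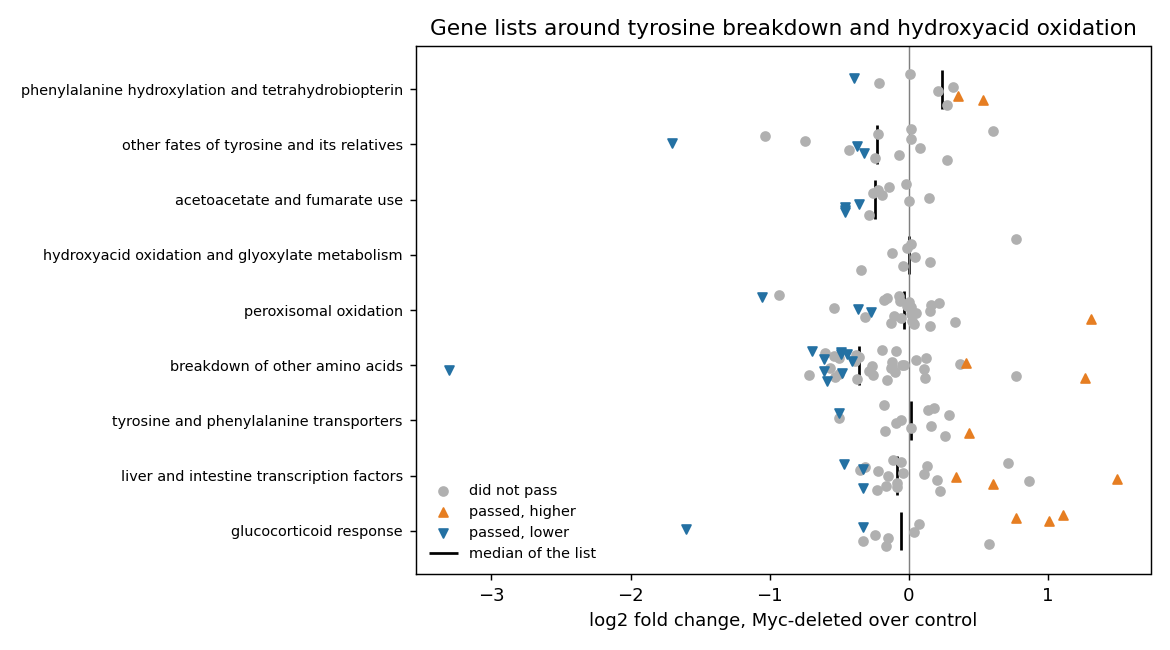
Log2 fold change of Myc-deleted over control for each tested gene of 9 lists; grey circles did not pass, orange triangles passed and were higher, blue triangles passed and were lower, and black bars are list medians. The list of other amino acids, with a median of -0.36, lies to the left of the rest, and Bhmt is its far point at -3.30.

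Tat is a textbook target of the glucocorticoid receptor, so other genes of the glucocorticoid response were read beside it. Their list holds the receptor gene and genes of steroid enzymes as well as targets. Of its 12 tested genes 25.0% rose and 16.7% fell, where 4.22% of all tested genes were higher and 3.73% lower. Of 12 tested genes, Tsc22d3 (1.11 ± 0.13, edgeR adjusted p = 0.00138), Per1 (1.005 ± 0.22, adjusted p = 0.0231) and Sgk1 (0.77 ± 0.18, adjusted p = 0.0273) rose, while Mt2, a metallothionein (-1.60 ± 0.29, adjusted p = 0.00973), and the receptor gene Nr3c1 (-0.33 ± 0.08, adjusted p = 0.0272) fell. Tsc22d3 and Mt2 passed in all 6 runs without a library. Per1 did not pass without Myc-deleted library 1 (0.0531) or control library 1 (0.0769) or 2 (0.108). Sgk1 passed in 1 such run, without Myc-deleted library 3, and Nr3c1 in 1, without Myc-deleted library 1. Fkbp5, which the receptor also induces, did not pass (-0.15 ± 0.20, adjusted p = 0.719). It stood at 202 CPM in Myc-deleted library 1 and at 117 and 113 CPM in Myc-deleted libraries 2 and 3, against 141 to 174 CPM in control libraries. Without Myc-deleted library 1 Fkbp5 was lower and passed (-0.47, edgeR adjusted p = 0.0249).

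Of 23 tested transcription factor genes of liver and intestine, 3 rose and 3 fell, with a median of -0.08. Of all tested genes 4.22% were higher and 3.73% lower. Gata4, a factor of the proximal intestine, rose (1.496 ± 0.27, edgeR adjusted p = 0.00973) and passed in all 6 runs without a library. Creb3l3, a lipid regulator of liver and gut, rose (0.60 ± 0.12, edgeR adjusted p = 0.0130) and did not pass without Myc-deleted library 2 (0.0553) or control library 2 (0.0739). Ppard fell (-0.47 ± 0.11, edgeR adjusted p = 0.0240) and did not pass without Myc-deleted library 2 (0.0879) or 3 (0.0716) or control library 1 (0.0575) or 3 (0.0795). Gata6 rose but passed in only 1 of 6 runs without a library, the one without control library 3. It also missed the threshold with upper-quartile scaling, DESeq2 and the block. Cebpa fell but passed in none of these 6 runs (edgeR adjusted p of 0.0514 to 0.106).

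The genes beside the members on the chromosome mostly showed no difference that passed. Of 24 nearest protein-coding neighbours, 15 were tested, 0 fell and 1 rose, where 3.73% of all tested genes were lower and 4.22% higher. At an unadjusted p under 0.05, 1 was lower and 2 were higher, and all tested genes were not counted at that p. The riser was Arnt2, 174983 bases from Fah, at 15.4 ± 0.456 CPM in Myc-deleted and 3.18 ± 1.19 CPM in control mice (2.25 ± 0.22, edgeR adjusted p = 0.000704). Hao2 has the steroid dehydrogenase genes Hsd3b1 and Hsd3b6 on one side, both at 0 in every library. On its other side Wars2 did not pass (-0.86 ± 0.29, edgeR adjusted p = 0.111). Hpd overlaps the span of Psmd9 on the opposite strand and shares 0 exon bases with it, and Psmd9 did not pass (0.14 ± 0.12, edgeR adjusted p = 0.531). Gstz1 shares 465 of 5088 exon bases with Pomt2 on the opposite strand. The kit marks strand, but whether counting used it is not given in the sources used here, so reads in that stretch may be shared. Pomt2 stood at 7.66 CPM in Myc-deleted and 6.57 CPM in control mice.

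The profiles most like each called member were sought among tested genes whose log2 CPM averaged 1 or more, 11207 others for Tat and for Hpd. Hao2 itself averaged below 1, so its search covered only genes of a higher mean level. The measure was the root mean square difference of centred log2 CPM over the 6 libraries. The difference between groups is part of this measure, so it describes and does not test. For Tat the nearest was Lbp, the lipopolysaccharide-binding protein gene (0.166), then the antibacterial lectin genes Reg3g (0.316) and Reg3b (0.374). Lbp stood at 2.93, 1.21 and 4.24 CPM in Myc-deleted libraries 1 to 3, against 5.67, 6.40 and 10.5 CPM in control libraries 1 to 3. All 3 genes were lowest in Myc-deleted library 2, where Tat was lowest. For Hpd they were the metallothionein gene Mt1 (0.123), Coq8a, which serves coenzyme Q synthesis (0.141), and Lsm11, of the histone mRNA processing particle (0.147). For Hao2 they were the glucuronosyltransferase gene Ugt2b5 (0.366), the membrane progestin receptor gene Paqr5 (0.412) and Sned1 (0.442).

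**Figure D4:**
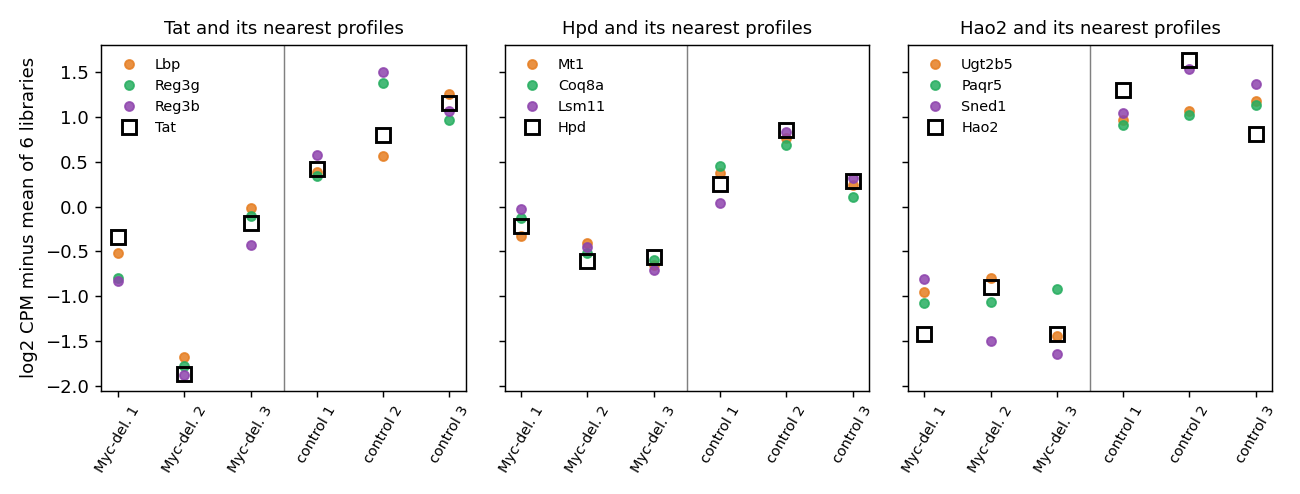
Log2 CPM minus the mean of the 6 libraries for Tat, Hpd and Hao2 (open squares) and the 3 genes nearest to each (filled circles), with Myc-deleted libraries left of the line and control libraries right of it. Tat and its 3 neighbours share a low point in Myc-deleted library 2; for Hao2 the Myc-deleted libraries lie below the controls with little order among them.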

How the data were processed

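The mRNA kit was stranded, per the labels. The authors deposited unscaled expected counts, 1 value per gene and library. The submitters' processing notes name cutadapt, STAR, Picard, RSEM and mm10, without versions. Of 47643 genes, 99.1% matched a symbol in GENCODE M21 (GRCm38) by Ensembl identifier, and 24952 were at 0 throughout. Library totals were 9956938 to 11328693, and limits of 3 counts cover counting error only.

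Counts were rounded to whole numbers. The test was that of edgeR 4.0.16 in R 4.3.3 (filterByExpr with minimum count 10 and minimum total 15, TMM, quasi-likelihood F-test, Benjamini-Hochberg adjustment over all tested genes, threshold 0.05). Each SE is the size of the fold change (log2) divided by the root of its F value. Log2 CPM used a prior count of 2. DESeq2 1.42.0 and limma 3.58.1 served as alternatives. The procedure was also run on simulated counts with known changes, and the outcome is not reported here. The members and gene lists were chosen with earlier results of these data known. Genes named were the members, Hao1, Hpdl, Myc, up to 4 called genes of lowest p per list (some are not reported here), the 2 nearest protein-coding genes on each side, the 3 nearest profiles and, for some marker lists, the most abundant gene. Beyond that rule, Maoa, Cat, Ldhd, Fkbp5, Slc6a19, Sgk1, Vil1, Alb, Ttr, Apoh, Slc2a2, Slc43a1, Cela1 and Fgf15 were named with their values known. So were Lct, Slc40a1, Adh1, Car1, Car4, Gata6 and Cebpa. Sequences are from RefSeq (GRCm38.p6). All 6 table columns were used.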

Additional observations from a re-analysis of the deposited data

How the results depend on the processing

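The settings tried were scaling by RLE or the upper quartile, limma voom, DESeq2, no filter, a stricter filter (at least 1 CPM in 3 libraries), the replicate number as a block, an adjusted p of 0.1, each library left out and, for log2 CPM, a prior count of 0.5. Same-numbered libraries of the groups correlated at 0.026, 0.052 and 0.019 in their deviations, all under 0.1, so the numbers were not taken to pair them, although each library correlated best with its own number. Upper-quartile scaling gave 449 higher and 591 lower genes, against 537 and 474 with TMM. With the replicate block 552 genes were higher and 428 lower, and with an adjusted p of 0.1 824 were higher and 748 lower. No alternative turned the sign of Tat, Hpd, Gstz1 or Hao2. The call was lost for Tat with DESeq2 (-1.46) and for Hpd with DESeq2 (-1.004), limma voom (-0.99) and the block (-0.99). Gstz1 passed with upper-quartile scaling (-0.49), without a filter (-0.45) and at an adjusted p of 0.1 (-0.45). Tetrahydrobiopterin risers numbered 1 with upper-quartile scaling, DESeq2 and the block. Risers among other fates of tyrosine numbered 1, and among other amino acids 4, with DESeq2, without a filter and at 0.1. Transporter risers numbered 0 with upper-quartile scaling and the block. The cause was not tested.

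Leaving out 1 library gave 229 to 503 higher and 233 to 447 lower genes. Higher genes numbered 337 without Myc-deleted library 2, 343 without control library 1 and 229 without control library 2. Lower genes numbered 302, 303 and 233 in those runs and 313 without control library 3. Fold changes were -1.75 to -1.10 for Tat and -1.15 to -0.78 for Hpd. Risers and fallers were 0 to 1 and 0 to 1 for tetrahydrobiopterin, 0 to 2 and 1 to 2 for other fates of tyrosine, 1 to 2 and 1 to 3 for peroxisomal oxidation, 1 to 3 and 5 to 8 for other amino acids, 0 to 1 and 0 to 1 for transporters, 1 to 3 and 0 to 3 for transcription factors and 1 to 3 and 1 to 3 for the glucocorticoid response. Marker risers were 1 to 5 for enterocytes, 2 to 5 for the proximal list and 0 to 1 for the colonic list. Proximal fallers numbered 1 to 2. Fallers were 2 to 5 for acetoacetate and fumarate use. Depth limits Fah, Hgd and the fold of Hao2.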
